A study of Mus musculus with 25 samples.

Results

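The animals described here are the 14 hypogonadal (hpg) mice that received gonadotropin-releasing hormone (GnRH), out of 25 animals in the study. They were all the animals whose labels name the GnRH group, 6 females numbered 6 to 11 and 8 males numbered 18 to 25. The hpg mouse carries a deletion in the gene for GnRH on both chromosomes and makes none of the hormone, so GnRH reached these pituitaries only by injection. All 14 were hpg/hpg. Each was given 1 µg GnRH intraperitoneally every day, 10 days in all, and was killed 1 h after the final dose to collect the pituitary. The sources used here name neither age nor strain background. Each animal gave 1 library of polyadenylated RNA, and the saline animals were not used. The question was how far animals given the same treatment differ from each other, and which genes differ together.

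GnRH acts on the gonadotropes, the pituitary cells that make luteinizing hormone (LH) and follicle-stimulating hormone (FSH). Its receptor, encoded by Gnrhr, works through Gq proteins, calcium and the MAP kinases, and within minutes these raise immediate early genes, among them members of the Fos, Jun, Egr and Nr4a families and Atf3. The hormones themselves are pairs of a shared alpha subunit, encoded by Cga, with a beta subunit encoded by Lhb or Fshb. Immediate early transcripts rise and decay within a short time, whereas hormone transcripts change slowly.

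The deposited values are regularized-log (rlog) values, a log2 scale with shrinkage of low genes, so 1 unit is a doubling on that scale. Each gene was centred on the mean of its sex, and its spread is the within-sex standard deviation (SD) pooled over the 14 animals, with 12 degrees of freedom. Of 47069 genes, 15559 had a mean of at least 5 over the treated animals and were used. Their median SD was 0.126, with quartiles of 0.0995 and 0.161. The median was 0.139 among females and 0.107 among males. The treated libraries resembled each other closely, with correlations between 0.985 and 0.997. Xist and 4 Y-linked genes matched the labelled sex in all 14 animals. Depth is unknown because only rlog values were analysed, and no animal has a technical replicate, so animal differences and library differences cannot be told apart. In bulk tissue a change in the number of cells of a type and a change in RNA per cell cannot be told apart either.

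The widest spread of all genes used belonged to Atf3, with an SD of 1.24. Atf3 (ENSMUSG00000026628, chr1:191170296-191218039 in GRCm38, minus strand) encodes a stress-inducible factor of the ATF and CREB family. Its rlog level in females ran from 6.55 in animal 10 through a median of 8.32 to 9.26 in animal 6, a 6.54-fold range on that scale. In males it ran from 6.5 in animal 19 through a median of 8.54 to 10.7 in animal 18, an 18.5-fold range. Males 18 and 21 stood above the 12 other animals, and female 10 and male 19 below them. An SD of at least 0.5 was reached by 74 genes, 0.476% of those used, and an SD of at least 1 by 9. Without males 18 and 21 the SD of Atf3 was 0.937. Atf3 no longer had the widest spread without both, or without male 18, 19 or 21 alone, and Gdpd3 was the widest gene without male 21. Gdpd3 was also the widest by the median absolute deviation, which shared 17 of its 30 widest genes with the SD. Relative to the trend of SD on the mean, the unnamed gene ENSMUSG00000106106 was the widest, with 27 of 30 shared.

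**Figure D1:**
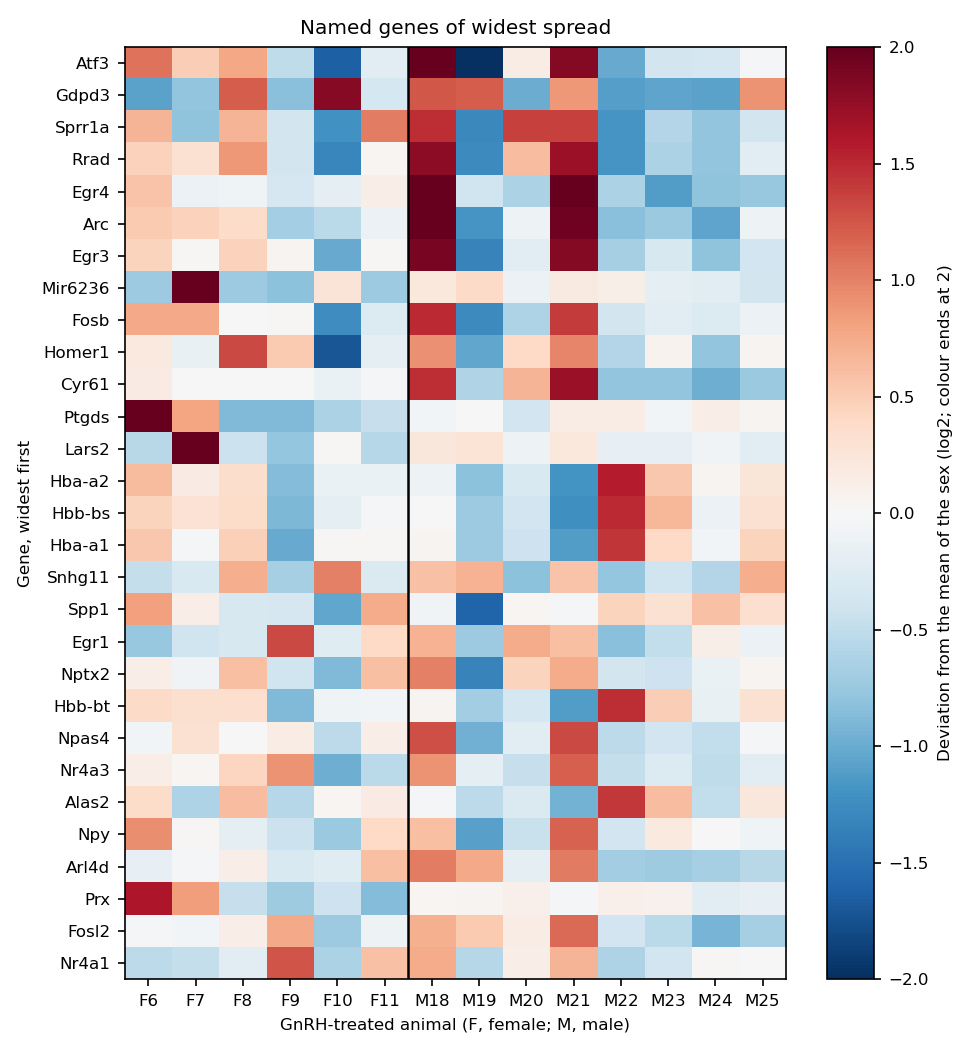
Deviation of named genes of widest spread (rows, widest first) from the mean of its sex, in log2 units, in each GnRH-treated animal (columns; F female, M male). Colour saturates at 2. Males 18 and 21 are red in Atf3, Egr4, Arc and Egr3, female 6 in Ptgds and Prx, female 7 in Lars2 and Mir6236, and male 22 in the globin genes.

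After Atf3, the 30 widest genes with an ordinary gene name fell into a few visible blocks. Many were immediate early genes: Egr4 had an SD of 1.06, Arc 1.05, Egr3 0.980, Fosb 0.879, Cyr61 0.855, Egr1 0.690, Npas4 0.672, Nr4a3 0.669, Fosl2 0.644 and Nr4a1 0.630. Other members of the block do not belong to that family. Rrad, a small GTPase that restrains voltage-gated calcium channels, had an SD of 1.06, and Sprr1a, a small proline-rich protein of the cornified envelope, 1.09. Gdpd3, a glycerophosphodiester phosphodiesterase, had an SD of 1.17 and followed another pattern. Ptgds, a prostaglandin D synthase, had an SD of 0.782, and its 2 highest animals were females 6 and 7, at 11.7 and 10.4. The 4 globin genes Hba-a1, Hba-a2, Hbb-bs and Hbb-bt lay between 0.679 and 0.728. Hba-a1 and Hba-a2 are near-identical copies whose reads cannot be assigned with certainty, and per the labels' protocols a kit removed part of the globin and ribosomal transcripts from each library. The last of the 30 was at rank 36, because 6 predicted or unnamed genes on the way were left out.

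The list of immediate early genes had 33 of 34 members in use, of which 24 had an SD of at least 0.3, against 2.15% of all genes used. Their median SD was 0.495. The mean correlation between pairs of members was 0.579, against 0.0003 between all pairs of genes used. The mean deviation of the list was 0.814 in male 18 and 0.842 in male 21. It was lowest in male 22, at -0.435, and stood at -0.421 in male 19 and -0.354 in female 10. Without males 18 and 21 the mean pairwise correlation was 0.226. The list of MAP kinase feedback inhibitors, phosphatases and adaptors that damp the pathway, also had its highest means in these males, at 0.318 in male 18 and 0.424 in male 21. It had 6 of 15 members with an SD of at least 0.3, among them Errfi1 at 0.597 and Dusp1 at 0.427. Its mean pairwise correlation was 0.383 with all animals and 0.212 without males 18 and 21.

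The immediate early genes did not move as a single block. Clustering of the 300 genes of widest spread by their correlation over the 14 animals gave 7 sets of at least 10 genes, holding 250 genes, and 5 smaller sets holding 38. These sets come from the same values that they describe and carry no test. The largest set, led by Rrad and Egr3, held 71 genes, of which 19 were on the list of immediate early genes: Atf3, Arc, Fosb, Fosl1, Fosl2, Egr2, Egr3, Egr4, Npas4, Nr4a2, Nr4a3, Srf, Zfp36, Cyr61, Csrnp1, Gadd45b, Klf4, Maff and Sik1. A set of 8 genes held another 5 from the list, Fos, Junb, Egr1, Nr4a1 and Btg2, with Dusp1, Rasd1 and Ovca2. Without males 18 and 21, the 300 genes of widest spread were chosen anew and clustered again. The best match to the largest set then held 34 genes, 27 of them from the 71. Genes of the 71 that were no longer among the 300 were not clustered there. The count therefore does not show that the others of the 71 stopped moving together. The set of 8 was below the 10 genes required by the rule and is described because its members were seen to include Fos.

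The sequence just before the start of transcription was read for both kinds of gene, since Atf3 and Fosb stood in one set and Fos and Junb in the other. Sequences are RefSeq's, build GRCm38.p6, and show the 250 bases before the start, 5′ to 3′ on the gene's strand. Capitals mark TGACG on either strand, the half-site bound by factors of the ATF and CREB family. The Atf3 window is chr1:191183334-191183583 (minus strand) and lies inside the annotated span of the gene, the Fosb window chr7:19310046-19310295 (minus), the Fos window chr12:85473640-85473889 (plus) and the Junb window chr8:84978749-84978998 (minus).
Atf3: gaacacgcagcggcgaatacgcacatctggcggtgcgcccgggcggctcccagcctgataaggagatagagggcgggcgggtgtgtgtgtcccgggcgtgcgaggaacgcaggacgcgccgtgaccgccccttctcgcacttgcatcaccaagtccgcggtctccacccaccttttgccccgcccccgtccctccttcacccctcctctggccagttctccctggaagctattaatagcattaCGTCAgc
Fosb: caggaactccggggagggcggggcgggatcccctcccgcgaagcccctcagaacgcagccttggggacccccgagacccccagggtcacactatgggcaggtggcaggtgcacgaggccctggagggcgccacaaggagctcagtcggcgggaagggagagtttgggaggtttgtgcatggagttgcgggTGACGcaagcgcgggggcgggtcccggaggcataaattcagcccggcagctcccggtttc
Fos: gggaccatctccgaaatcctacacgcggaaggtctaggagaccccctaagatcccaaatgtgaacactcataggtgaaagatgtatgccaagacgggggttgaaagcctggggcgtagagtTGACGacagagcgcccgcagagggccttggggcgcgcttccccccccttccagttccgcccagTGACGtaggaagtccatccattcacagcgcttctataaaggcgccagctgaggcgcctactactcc
Junb: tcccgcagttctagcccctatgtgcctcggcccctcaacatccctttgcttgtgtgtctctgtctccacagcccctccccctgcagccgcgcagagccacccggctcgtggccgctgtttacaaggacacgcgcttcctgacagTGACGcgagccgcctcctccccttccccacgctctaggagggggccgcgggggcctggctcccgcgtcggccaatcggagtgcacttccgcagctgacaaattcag

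The half-site was present in all 4 of these windows, at 7 to 3 bases before the start in Atf3 and at 60 to 56 in Fosb. Fos had it at 129 to 125 and again at 66 to 62, and Junb at 106 to 102. Of the 71 genes in the set of Rrad and Egr3, 47 had a promoter in the table, and 25 of these (53.2%) held TGACG in at least 1 window. In the smaller set, 5 of 6 (83.3%) held it. The share was 29.8% among the 11075 genes with a mean of at least 5 that had a promoter and 19.8% among all 27025 genes in the table. The full palindrome TGACGTCA, which contains the half-site on both strands, occurred in 4 of 47 (8.51%) against 3.01% of the genes used. The AP-1 site TGANTCA occurred in 8 of 47 (17.0%) against 5.41%. The GC-rich sequence GGGCGG, which marks base composition, occurred in 34 of 47 (72.3%) against 63.2%. Genes with several annotated starts had several windows, each of which could supply a match, and these shares are counts of letters, not of bound sites.

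In the smaller set, TGACGTCA occurred in 2 of 6 promoters (33.3%), GGGCGG in 4 (66.7%) and TGANTCA in 0. The CArG box, the site of serum response factor, likewise occurred in 0 of the 6. Only the bases just before the start were read, so sites farther upstream would be missed. Of the 8 genes in this set, 6 had a promoter to read. These counts of 0 therefore do not show that genes of the smaller set lack either site. In the larger set the CArG box was found in 5 of 47 genes (10.6%), namely Dusp5, Egr2, Srf, Vcl and Zfp36. Its share was 1.44% among the genes used and 1.62% among all genes. Srf, which encodes serum response factor itself, and Dusp5, a phosphatase of ERK, each had 2 in the windows at chr17:46556163-46556412 (minus strand) and chr19:53528895-53529144 (plus strand). Capitals mark the CArG boxes.
Srf: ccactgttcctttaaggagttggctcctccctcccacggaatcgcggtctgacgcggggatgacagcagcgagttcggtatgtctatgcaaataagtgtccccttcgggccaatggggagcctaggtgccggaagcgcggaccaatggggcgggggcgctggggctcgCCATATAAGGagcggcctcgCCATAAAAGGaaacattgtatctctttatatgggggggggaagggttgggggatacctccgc
Dusp5: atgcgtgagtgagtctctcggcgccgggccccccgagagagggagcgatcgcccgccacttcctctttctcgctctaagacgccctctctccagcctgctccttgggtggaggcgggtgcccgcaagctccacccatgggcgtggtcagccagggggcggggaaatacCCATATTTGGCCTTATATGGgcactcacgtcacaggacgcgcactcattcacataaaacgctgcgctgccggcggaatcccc
The difference between the sets, with 47 and 6 promoters, was not tested. Rrad, Egr3 and Arc had no entry in the promoter table.

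Animals 18 and 21 led the larger set. The mean deviation of its 71 genes was 0.766 in male 18 and 0.805 in male 21, while the 6 other males lay between -0.407 and 0.128. Male 18 or 21 was the highest male in 63 of the 71 genes, 29 in male 18 and 34 in male 21. Among females, animal 8 had the highest mean at 0.312 and animal 10 the lowest at -0.519, and animal 10 was the lowest female in 56 genes. The set also held genes outside the rapid transcription factors: Slc2a1, the glucose transporter GLUT1, Cldn4, a claudin of tight junctions, Vgf, a granule protein precursor, Rgs2, which ends Gq signalling, and Isl1, a LIM homeodomain factor. Over all genes used, the deviations of animals 18 and 21 were correlated at 0.415, as were those of females 8 and 9 at 0.415. The third highest pair, males 22 and 24, stood at 0.315. These correlations are across genes, which are not independent replicates.

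The smaller set ranked the females differently, but males 18 and 21 led the males in both sets. Its mean deviation was 0.606 in male 18, 0.573 in male 21 and 0.577 in female 11. It was lowest in male 22 at -0.651 and female 6 at -0.466. Female 8, highest of the females in the larger set, stood at -0.245 here, and female 10, lowest there, at 0.0836. Female 6 was the highest female in Atf3 and among the lowest in Fos, at 9.98. The level of Fos in females ran from 9.92 in animal 8 through a median of 10.4 to 11.3 in animal 11. In males it ran from 11.0 in animal 22 through a median of 12.0 to 12.2 in animal 24. Junb, another AP-1 subunit, ran from 10.6 to 11.9 in females and from 11.3 to 12.8 in males. Fos in males 24, 25, 18, 21 and 20 lay within 11.97 and 12.21. The 2 males that led Atf3 thus did not stand apart in Fos. The same 2 males were the highest males in Junb, Btg2, Dusp1 and Nr4a1, while male 20 was highest in Egr1. In Btg2, males 18 and 21 stood at 13.0 and 13.1, and the next male, animal 20, at 12.3.

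**Figure D2:**
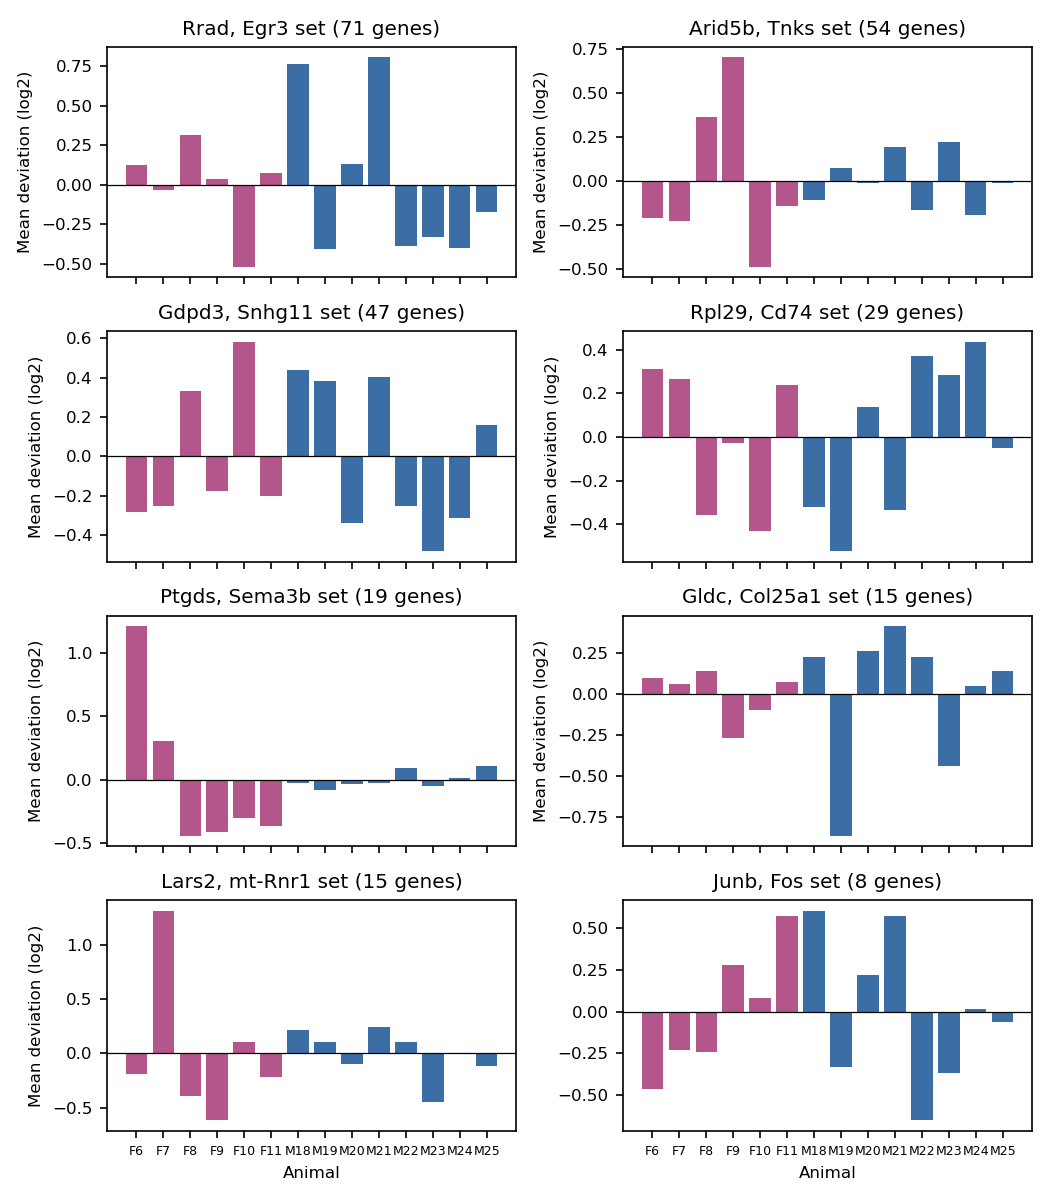
Mean deviation (log2) of the genes of each set in each GnRH-treated animal (F female, magenta; M male, blue), for the 7 sets of at least 10 genes and the smaller set of Junb and Fos. Bars are means over genes of 1 animal, without error. Males 18 and 21 lead the first panel, female 6 the Ptgds panel, female 7 the Lars2 panel, and male 19 is lowest in the Gldc panel.

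Correlations between chosen genes were computed for 15 pairs on values centred by sex, with permutation of animals within sex (100000 resamples, two-sided) and Benjamini-Hochberg adjustment over the 15 pairs. Atf3 and Rrad had the closest relation, with a Pearson r of 0.945 and a Spearman rho of 0.952 (both permutation p = 1e-05, the smallest these resamples can give; adjusted p = 0.00015). The pair was chosen with earlier results of these data known. The r was 0.940 without the 2 animals farthest from the median of Atf3, 18 and 19, and 0.880 without 18 and 21. Within sexes it was 0.955 among 6 females (exact permutation p = 0.00556) and 0.945 among 8 males (exact permutation p = 5e-05). Rrad itself ran from 8.15 in female 10 to 10.3 in female 8 and from 8.42 in male 19 to 11.5 in male 18.

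Atf3 and Fos showed no relation past the threshold over the 14 animals, at r = 0.093 and rho = 0.046 (permutation p = 0.751 and 0.883, adjusted p = 0.939 and 0.946). Without the 2 animals farthest from the median of Atf3, r was -0.201. Within females r was -0.734 (exact permutation p = 0.1) and within males 0.654 (exact permutation p = 0.0863), and the difference between the sexes was not tested. Fos and Egr1 gave r = 0.456 and rho = 0.538 (permutation p = 0.125 and 0.0567, adjusted p = 0.376 and 0.213), with r = 0.315 without animals 8 and 22. Within females it was 0.144 (exact permutation p = 0.821) and within males 0.798 (exact permutation p = 0.0282). Egr1, a zinc finger factor that drives Lhb, was highest among females in animal 9 at 13.1, where Fos stood at 10.2. Fos and Hspa1a, a heat shock gene, gave r = -0.0053 and rho = -0.077 (permutation p = 0.986 and 0.791, adjusted p = 0.986 and 0.946).

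**Figure D3:**
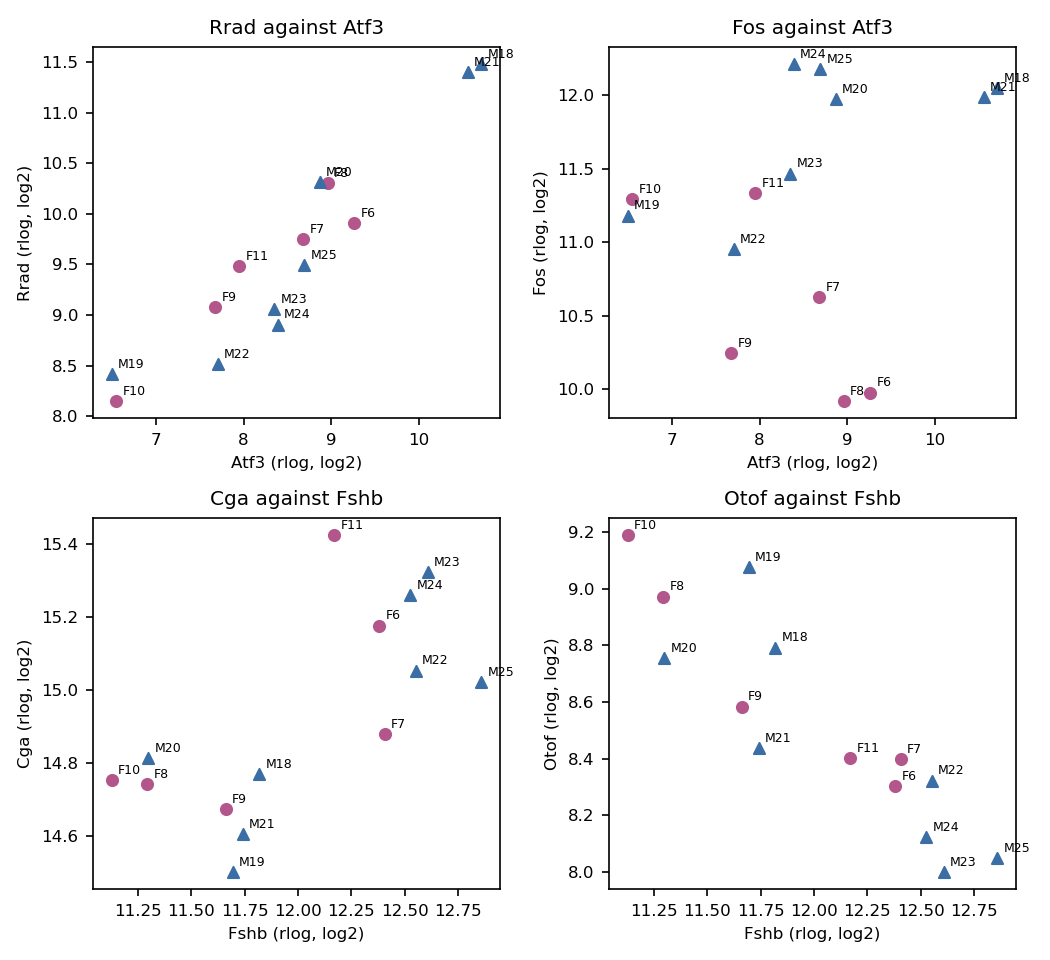
rlog levels (log2) of 4 pairs of genes in each GnRH-treated animal (circles, females; triangles, males; numbers, animals). Rrad follows Atf3 along 1 line in both sexes (r = 0.945 after centring), Fos does not (r = 0.093), Cga rises with Fshb (r = 0.721), and Otof is lower where Fshb is higher.

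Which genes over the whole table vary with Atf3 was tested with limma, with sex and the level of Atf3 as terms, over 15558 genes. At an adjusted p under 0.05, 45 genes were called (0.289%), 43 with a positive slope (0.276%) and 2 with a negative one (0.0129%). A slope is the change of the gene, in log2 units, per 1 log2 unit of Atf3. Rrad had a slope of 0.81 (SE 0.069, adjusted p = 7.38e-06) and Slc2a1 0.36 (SE 0.029, adjusted p = 4.51e-06). The slope of Egr3 was 0.73, of Arc 0.76 and of Fosb 0.65. Other genes with a positive slope were Cldn4 at 0.44, Nptx2 at 0.49, a pentraxin of synapses, Adamts1 at 0.31, a metalloprotease, and Timp1 at 0.28, an inhibitor of metalloproteases. The set of Rrad and Egr3 held 29 of the 45. Since that set was formed from the same animals and holds Atf3, this overlap is not independent.

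The immediate early list, with 33 members in use including Atf3, had 8 members called, all positive: Arc, Egr3, Fosb, Fosl1, Gadd45b, Jun, Npas4 and Srf. Jun, the partner of Fos in AP-1, had a slope of 0.19, and its level ran from 9.29 to 9.57 in females and from 9.19 to 10.2 in males. The feedback inhibitors had 2 of 15 members called, Rgs2 at 0.22 and Spry2 at 0.13. The 2 genes with a negative slope were Gata2 at -0.16 (SE 0.031, adjusted p = 0.0295) and Stc2 at -0.17 (SE 0.034, adjusted p = 0.0382). Gata2, a zinc finger factor of gonadotropes and thyrotropes, was the 1 of 16 members of the gonadotrope list that was called. Its level was lowest in males 21 and 18, at 9.92 and 10.2, and highest in female 10 at 10.8. Of the 14 fits that left out 1 animal, Gata2 was called in 10, Stc2 in 5, Jun in 5, Gadd45b and Spry2 in 11 each, and Rgs2 and Srf in 12 each. The adjusted p of Jun reached 0.383 without male 18.

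The calls with Atf3 leaned on males 18 and 21. Without either of them 21 genes were called, and without both 5, all among the 45. In males alone 55 were called, including 33 of the 45, and in the females alone limma called 0. In females 500 of 15558 genes had an unadjusted p under 0.05, fewer than the share of about 0.05 that chance gives. The 19 genes called in every one of the 14 fits that left out 1 animal were Gm13889, Slc2a1, Rrad, Egr3, Fosb, Arc, Adamts1, Cldn4, Timp1, Nptx2, Hbegf, Vmp1, Vgf, Pim1, Fosl1, Npas4, Rcan1, Sertad1 and Isl1. The highest adjusted p among those fits was 0.000225 for Rrad and 0.00014 for Slc2a1, both without male 18. The genes most alike to Atf3 by r over the 14 animals were Gm13889 (0.963), Slc2a1 (0.961), Rrad (0.945), Egr3 (0.929) and Actb (0.928), which encodes beta-actin. The slope of Actb was 0.12.

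The hormone genes differed in spread. Fshb, the FSH beta subunit (ENSMUSG00000027120, chr2:107056140-107059656 in GRCm38, minus strand), had an SD of 0.562. Its level in females ran from 11.1 in animal 10 through a median of 11.9 to 12.4 in animal 7. In males it ran from 11.3 in animal 20 through a median of 12.2 to 12.9 in animal 25. Animals 8, 9, 10, 18, 19, 20 and 21 lay at or under 11.82 and the other 7 at or above 12.17, so males 18 and 21 were among the lower. Lhb, the LH beta subunit, had an SD of 0.201, from 10.5 to 11.1 in each sex. Cga, the shared alpha subunit, had an SD of 0.297, and Gnrhr, the receptor, 0.332. Spp1, osteopontin, which is on the gonadotrope list, had an SD of 0.695 and was lowest in male 19 at 7.34 and female 10 at 7.87.

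Fshb and Cga rose together, with r = 0.721 and rho = 0.604 (permutation p = 0.00777 and 0.0326, adjusted p = 0.0389 and 0.163). The r was 0.765 without the 2 animals farthest from the median of Fshb, 10 and 20. The adjusted permutation p was 0.0567 there and 0.109 without males 18 and 21. The r was 0.654 within females (exact permutation p = 0.178) and 0.769 within males (exact permutation p = 0.0325). Leaving out single animals kept r between 0.699 and 0.785, but the adjusted p passed 0.05 in 9 of 14 such permutation tests, up to 0.0725 without male 23. Tshb, the beta subunit of thyroid-stimulating hormone, which also pairs with Cga, gave r = 0.817 and rho = 0.767 with it (permutation p = 0.0004 and 0.00276, adjusted p = 0.003 and 0.0207). The r was 0.757 without animals 19 and 23, with an adjusted permutation p of 0.0567 there, 0.793 within females (exact permutation p = 0.0528) and 0.843 within males (exact permutation p = 0.00484). With quantile-normalized values both pairs missed the threshold, Fshb and Cga at r = 0.632 (adjusted permutation p = 0.112) and Tshb and Cga at r = 0.650 (adjusted permutation p = 0.0869). Both pairs share Cga, which gonadotropes and thyrotropes make, so they are not independent of each other.

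The remaining pairs of hormone, receptor and rapid genes missed the threshold. Fshb and Lhb gave r = 0.121 and rho = 0.213 (permutation p = 0.695 and 0.473, adjusted p = 0.939 and 0.887), with 0.259 without animals 10 and 20, 0.023 in females and 0.202 in males. Fshb and Gnrhr gave r = -0.485 and rho = -0.473 (permutation p = 0.0951 and 0.108, adjusted p = 0.356 and 0.323), with -0.602 without animals 10 and 20, -0.688 in females and -0.305 in males. Fshb and Atf3 gave r = 0.045 and rho = 0.090 (permutation p = 0.882 and 0.770, adjusted p = 0.946 and 0.946), with -0.146 without animals 10 and 20, 0.580 in females and -0.226 in males. Fshb and Fos gave r = -0.064 and rho = -0.064 (permutation p = 0.832 and 0.838, adjusted p = 0.946 and 0.946), with -0.103 without animals 8 and 22. The other pairs, Lhb with Cga, Fshb with Rrad, Atf3 with Gnrhr, Gh with Prl and Prl with Fshb, had an r between -0.325 and 0.193 and adjusted permutation p between 0.633 and 0.939.

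With Fshb as the term in the limma fit, 1 of 15558 genes was called (0.00643%). Otof, which encodes otoferlin, a calcium sensor of vesicle fusion, had a slope of -0.60 (SE 0.085, adjusted p = 0.0262). Its level ran from 8.30 in female 6 to 9.19 in female 10 and from 8.00 in male 23 to 9.08 in male 19. The slope was -0.62 in females and -0.59 in males. Its adjusted p from limma was under 0.05 in 7 of the 14 fits that left out 1 animal and reached 0.0982 without female 8. The genes next in order, which missed the threshold, were H2-Ab1 with a slope of 0.53 (SE 0.085, adjusted p = 0.071), Tap1 with 0.29 (adjusted p = 0.131) and Irf8 with 0.32 (adjusted p = 0.156). H2-Ab1 and Tap1 serve antigen presentation and Irf8 is a factor of myeloid cells. By r with Fshb the order was Tap1 (0.918), Irf8 (0.877), Hyal2 (0.857), H2-Ab1 (0.855) and Ccnf (0.838). Between 0 and 12 genes were called when 1 animal was left out, the latter without male 20.

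The promoter of Fshb was read for the AP-1 site TGANTCA, here in capitals, since Fos, Junb and Fosb encode subunits of AP-1. The 250 bases lie at chr2:107059652-107059901 (GRCm38.p6, minus strand).
Fshb: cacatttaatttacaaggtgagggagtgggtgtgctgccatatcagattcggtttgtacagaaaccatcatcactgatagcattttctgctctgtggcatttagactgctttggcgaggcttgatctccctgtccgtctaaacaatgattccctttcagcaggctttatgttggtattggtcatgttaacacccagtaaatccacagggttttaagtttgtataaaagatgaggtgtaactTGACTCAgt
The window held 1 match, 9 to 3 bases before the annotated start. The motif was found in 7.82% of all genes in the promoter table.

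No gene was called with Lhb, Fos or Prl as the term (0.0% each). For Lhb, 3148 genes had an unadjusted p under 0.05, and the lowest adjusted p was 0.0799. That count was not stable: 507 genes were called without male 18, 497 without males 18 and 21 and 410 without female 8. With quantile-normalized values 162 were called. With the first component described below as a further term, 0 were called. Without female 9, which had the lowest Lhb of the females at 10.487, 0 were called as well. There 645 genes had an unadjusted p under 0.05, and the lowest adjusted p from limma was 0.878. In males alone 0 were called, 367 had an unadjusted p under 0.05, and the lowest adjusted p from limma was 0.998. For Fos, 865 genes had an unadjusted p under 0.05, and Dusp1 came first with a slope of 0.64 (adjusted p = 0.408). For Prl, the hormone of lactotropes, the number was 276. Chance alone gives a share of about 0.05 of the genes tested. The Fos number was slightly above that share and the Prl number below it. Prl had an SD of 0.345 and was highest in female 6 at 18.2 and male 19 at 18.1. Gh, the hormone of somatotropes, had an SD of 0.222. Pomc, the precursor made by corticotropes and melanotropes, had an SD of 0.541 and was lowest in male 23 at 17.4 and female 9 at 17.6.

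Another block of genes split the animals into separate levels. Gdpd3 (ENSMUSG00000030703, chr7:126766334-126775649 in GRCm38, plus strand) lay between 8.84 and 9.51 in animals 8, 10, 18, 19, 21 and 25 and between 6.63 and 7.35 in the other 8. No animal lay between 7.35 and 8.84. The set around it held 47 genes on 18 chromosomes, 28 of them protein-coding. Snhg11, a small nucleolar RNA host gene, had a level of at least 11.0 in the same 6 animals and at most 10.3 in the others. Lmbr1 ran from 8.42 to 8.48 in the same 6 and from 7.40 to 7.60 in the rest. The set also held 11 small noncoding RNAs, among them Rn7sk, Rn7s1 and Rpph1. Rn7sk followed the others less strictly, with a high of 9.99 in male 18 and a low of 8.22 in female 6. Gm8210, Gm13841 and Gm14036 share the pattern but are predicted genes whose reads may be shared with other copies. Gnrhr, with a correlation of 0.43 to the mean of the set, and Otof, with 0.71, were members.

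A set of 29 genes was the mirror of the block around Gdpd3, with a correlation of -0.93 between the mean deviations of the sets over the 14 animals. It was led by Rpl29, a protein of the large ribosomal subunit, which lay between 10.4 and 10.6 in animals 8, 10, 18, 19, 21 and 25 and between 11.3 and 11.6 in the others. The predicted gene Gm17669 had the same pattern, and whether its reads are shared with Rpl29 was not tested. Dnah10, an axonemal dynein, ran from 6.07 to 6.38 in those 6 and from 7.05 to 7.55 in the others. The set held the class II antigen presentation genes Cd74, H2-Aa, H2-Ab1 and H2-Eb1, the hormone genes Fshb and Tshb, Spp1 and Pttg1, chosen for mention after their values were seen. Fshb had a correlation of 0.71 to the mean of the set but did not keep its order, since male 25 had the highest Fshb of all. The labels give no litter, background strain, cage or day of collection for these animals.

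The first principal component of the centred values of all genes used took 31.4% of their variance, and the next 3 took 13.9%, 11.7% and 8.17%. Its scores were highest in females 9 and 8, at 20.5 and 16.0, and lowest in female 10 at -16.0 and male 24 at -10.6. Long transcripts followed it and short ones opposed it. Genes were cut by length into 10 bins of about equal size. In the bin of shortest genes, with a median exonic length of 763 bases, the median correlation with the component was -0.45, and in that of the longest, at 12345 bases, it was 0.57. Across the 15511 genes with an annotated length, Spearman's rho between length and this correlation was 0.449, a description across genes, which are not independent. The labels state RNA integrity numbers above 8.2 with a median of 9.1 over all samples of the study. No source used here gives RNA integrity or depth per animal, so their part in this component was not tested.

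**Figure D4:**
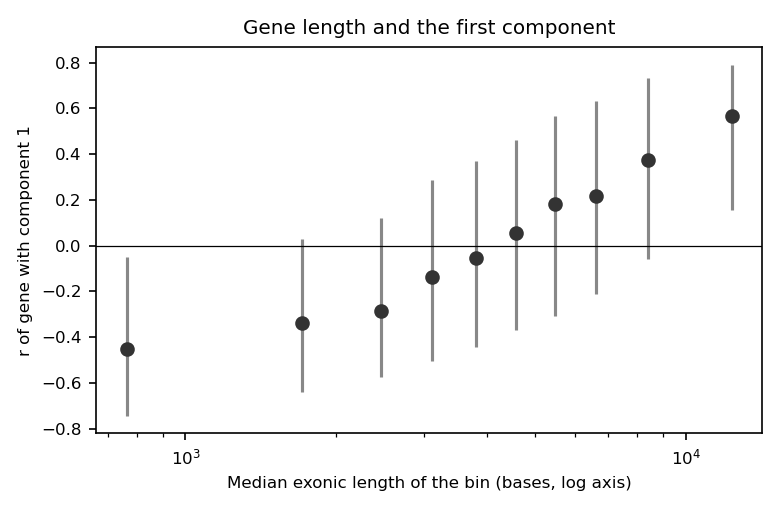
Correlation of genes with the first component over the 14 GnRH-treated animals, for 10 bins of genes by exonic length (bases, log axis). Points are medians and lines the quartiles over 1549 to 1555 genes. The median goes from -0.45 in the shortest bin to 0.57 in the longest.

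The set of 54 genes led by Arid5b, Tnks, Ptprg and Ptprn2 lay along that component, with a correlation of 0.966 to it, and its median exonic length was 8063 bases, against 4194 for all genes used. Its mean deviation was 0.701 in female 9 and 0.363 in female 8, and -0.485 in female 10. Female 9 was the highest female in 47 of its genes and female 10 the lowest in 38. Among its members were Irs1, Irs2 and Igf1r, of insulin and IGF signalling, Itpr1, the receptor that releases calcium after Gq signalling, and Scg2, a granin. Irs2 ran from 8.10 in female 10 to 10.1 in female 9 and from 8.76 to 10.0 in males. Scg2 ran from 14.7 to 15.8 in females and from 15.5 to 16.0 in males. For comparison, the set of Rrad and Egr3 had a correlation of 0.463 to the component and a median length of 3392 bases. The count of genes called with Atf3 was 85 with the component as a further term, and the 45 were among them.

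Other sets rested on 1 or 2 animals. A set of 19 genes led by Ptgds had a mean deviation of 1.21 in female 6 and 0.309 in female 7, and between -0.440 and 0.109 in the rest. It held the myelin genes Prx, Pmp22, Mbp and Mobp. Prx, periaxin of Schwann cells, was at 7.54 in female 6 and 6.77 in female 7, and between 5.06 and 5.51 in the other 12. Mog, a marker of central myelin, lay between 2.20 and 2.41 in all 14 animals, below the filter. Of the 18 members of that list, 10 were used, and their mean deviation was 0.244 in female 6 and 0.106 in female 7. The meninges list, with 4 members in use including Ptgds, had 0.626 in female 6. Peripheral nerve was on no list, and its genes are named after their values were seen. The part of other tissue in the levels of females 6 and 7 was not tested.

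The same animal was high in genes of cell division. The proliferation list had 14 of 18 members in use, with a mean pairwise correlation of 0.648 and a mean deviation of 0.489 in female 6. The next highest was male 25 at 0.175. Mki67, a marker of cycling cells, was at 9.04 in female 6 and between 7.29 and 8.20 in the others. Top2a, topoisomerase of replication, was at 7.91 there and between 6.36 and 7.28 elsewhere. Without female 6 the mean pairwise correlation was 0.370. Markers of pericytes and fibroblasts also had their highest mean deviation in female 6, at 0.292, followed by female 7 at 0.250.

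Female 7 stood apart in ribosomal and mitochondrial transcripts. A set of 15 genes with Lars2, Mir6236, mt-Rnr1 and mt-Rnr2 had a mean deviation of 1.31 in that animal, and all 15 were highest there among females. Lars2 was at 11.9 against 8.81 to 9.82 in the other 13. The unnamed gene ENSMUSG00000106106, annotated as ribosomal RNA, had the same pattern, at 15.4 in female 7 against 11.3 to 12.8. Whether reads of Lars2 are shared with ribosomal RNA was not tested. Of the 15, 8 were small noncoding or ribosomal RNAs. The same set held Acta2 and Myh11, of smooth muscle, and Pomc, Pcsk2 and Oacyl, which melanotropes of the intermediate lobe express. The list of mitochondrial transcripts had 13 of 13 members in use and a mean pairwise correlation of 0.808, with mean deviations of 0.490 in female 7 and -0.449 in female 9.

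Male 19 was low in genes of the posterior lobe. A set of 15 genes led by Gldc, glycine decarboxylase, Spon1, Col25a1, a transmembrane collagen, and Fbln2 had a mean deviation of -0.866 in male 19 and -0.440 in male 23, against -0.272 to 0.411 in the others. Gldc was at 6.91 in male 19 and 7.54 in male 23, and between 8.22 and 8.76 in the rest. The list of posterior lobe and pituicyte markers had all 12 members in use and a mean deviation of -0.494 in male 19. Avp, vasopressin, was lowest there at 5.83, and Oxt, oxytocin, at 6.28. Male 19 was also the lowest male in Atf3, Spp1 and Tshb, and the part of the posterior lobe in those levels was not tested. The list of melanotrope markers, with 7 of 10 members in use, had a mean pairwise correlation of 0.480 and was lowest in male 23.

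**Figure D5:**
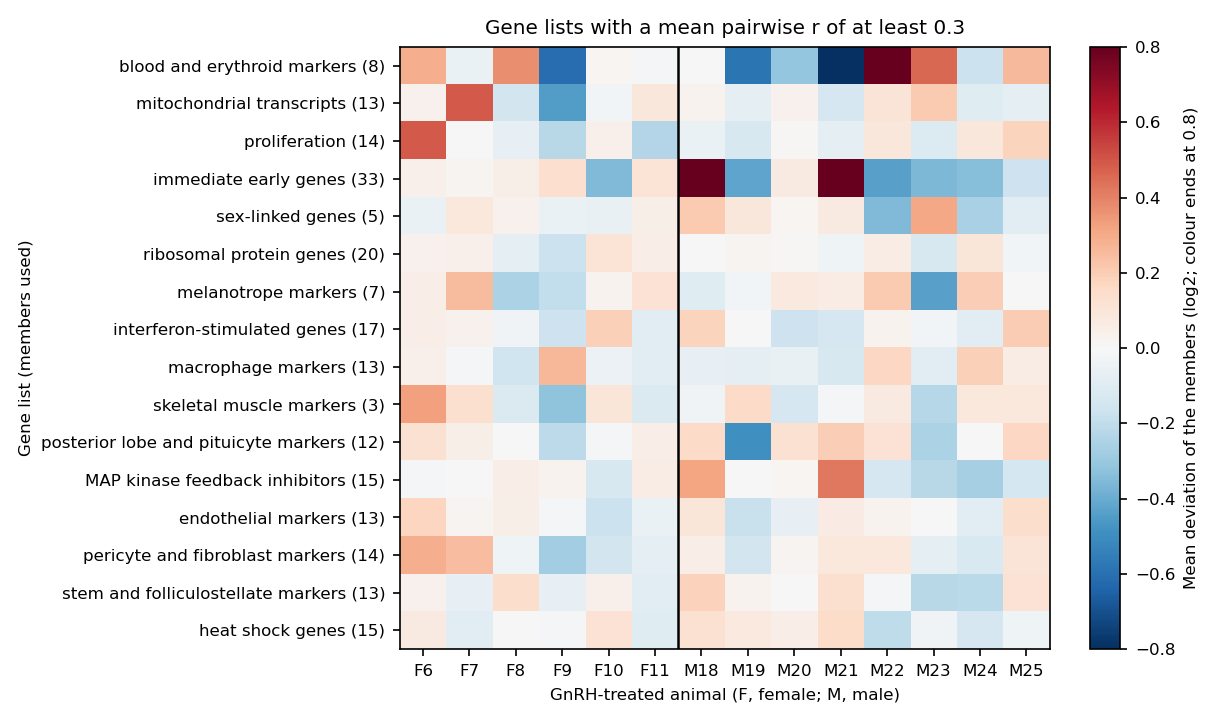
Mean deviation (log2) of the members of each gene list in each GnRH-treated animal, for the 16 lists with a mean pairwise correlation of at least 0.3, ordered by it. Colour saturates at 0.8 and the number of members used is in parentheses. Males 18 and 21 are darkest in immediate early genes, female 6 in proliferation and male 22 in blood and erythroid markers.

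Over all lists, 16 of the 34 with at least 3 members in use had a mean pairwise correlation of at least 0.3. Blood and erythroid markers were the most coherent at 0.890, with the highest deviation in male 22 and the lowest in male 21. Hbb-bs ran from 12.0 to 13.3 in females and from 11.6 in male 21 to 14.3 in male 22. Ribosomal protein genes had 0.518 and interferon-stimulated genes 0.457, with small SDs, at a median of 0.0958 and 0.185. Macrophage markers had 0.40 and their highest mean deviation in female 9, at 0.266, where Adgre1 was at 6.88 against 5.57 to 6.12 in the others. Heat shock genes had 0.309. Lists that did not move together included the gonadotrope genes at 0.069, the somatotrope markers at 0.039 and the corticotrope markers at 0.0005. The unfolded protein response had 0.169 and circadian clock genes 0.218. In the gonadotrope list, Fshb, Spp1, Egr1 and Nr4a1 had SDs of at least 0.562, while the factors Pitx1 and Nr5a1 had 0.14 and 0.24.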

How the data were processed

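Bulk RNA-seq of polyadenylated RNA was made from single pituitaries of 25 mice, and the 14 given GnRH were analysed. Per the submitters' processing notes the tools were bcl2fastq, STAR and featureCounts with build mm10. No source used here gives versions, the strand setting or the depth per sample, so overlapping and antisense genes cannot be separated. The deposited values are on a log2 scale, and the name the authors gave the table says regularized-log (rlog) normalization, which scales libraries and shrinks each gene towards its mean. The table itself records no further step. Differences of low genes are therefore understated.

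Groups came from the labels. Genes with a mean of at least 5 over the 14 animals were kept and centred by sex. Pooled within-sex SDs, average-linkage clustering of the 300 widest genes (distance 1 minus r, height 0.5, at least 10 genes), 35 gene lists and 15 gene pairs were computed in Python 3.11.15 with scipy 1.17.1. Of 529 list members 528 had a row and 403 passed the filter. Genes varying with Fshb, Lhb, Atf3, Fos or Prl were tested with limma 3.58.1 in R 4.3.3 (terms for sex and the gene, moderated variance with trend, two-sided), with Benjamini-Hochberg adjustment over all genes tested and a threshold of 0.05. The script was tested on simulated data. Gene positions and lengths are GENCODE's for GRCm38, promoters RefSeq's for GRCm38.p6. P-values concern the association between genes across these animals, and the SDs, sets and lists carry no test.

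The animals, lists and pairs were chosen with earlier results of these data known. Named genes are a fixed set of hormone and rapid genes, the 30 widest genes leaving out predicted genes and pseudogenes, up to 4 per list by SD, up to 8 per set by correlation with its mean, up to 6 per direction of each fit, and the 5 most alike to Fshb and Atf3. Genes outside that rule, among them Junb, Gata2, Otof's neighbours in the order of p, the class II genes, Pmp22, Mobp, Top2a, Oxt, Irs2, Acta2 and Myh11, were chosen after their values were seen. A gene that met the rule is not reported here.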

Additional observations from a re-analysis of the deposited data

Results flagged for a closer look

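Of 144 groups of values checked for an animal far from the rest of its sex, 10 had one, where chance gives about 1 in 20. Female 10 was far below the other females in Egr3 at 6.609, in the mean of the immediate early genes at 8.692 and in the mean of the thyrotrope markers at 8.862. Female 7 was far above them in Mir6236 at 9.88 and Lars2 at 11.89. Female 9 was far below them in Lhb at 10.487, where the next female stood at 10.937. Among males, animal 23 was far below the others in Pomc at 17.429 and in the mean of the cartilage and bone markers at 7.186. Male 19 was far below in Spp1 at 7.339, and male 20 in Ptgds at 8.584.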

How the results depend on the processing

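No paired analysis was possible because every animal has its own number. The values rest on 6 females and 8 males of unknown depth, and rlog shrinkage limits what low genes can show. The number of gene sets was 7 and became 12 with 500 genes clustered. Of the 3 gene pairs called, 1 was called with quantile normalization, 1 without the 2 animals farthest from the median and 0 in females alone. Gh is constant under quantile normalization, so Gh with Prl gave no value there. Genes called with Atf3 numbered 45, and 5 without males 18 and 21, 0 in females alone, 85 with the first component as a term (added after seeing the data) and 21 to 74 leaving out 1 animal. The count of 21 was reached without male 18 and without male 21, that of 74 without female 9. With Fshb the count was 1, and 0 in females alone, 0 in males alone and 0 to 12 leaving out 1 animal. With Lhb it was 0, and 162 with quantile normalization, 497 without males 18 and 21, 1 in females alone and 0 to 507 leaving out 1 animal.

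Some correlations below the threshold changed sign. Without males 18 and 21, Fshb with Rrad was 0.0393, Atf3 with Fos -0.1115 and Fos with Fshb 0.0042. Without the 2 farthest animals, Lhb with Cga was -0.2785, Fshb with Atf3 -0.1457 and Atf3 with Fos -0.2008. In females, Fshb with Rrad was 0.4511, Atf3 with Fos -0.7342 and Prl with Fshb 0.4768. In males, Fshb with Atf3 was -0.2261, Gh with Prl -0.1396 and Fos with Hspa1a 0.1174. Leaving out 1 animal, Fshb with Atf3 ran from -0.1459 to 0.165, Atf3 with Fos from -0.1061 to 0.3222, Fos with Fshb from -0.2028 to 0.1247, Prl with Fshb from -0.3214 to 0.0557 and Fos with Hspa1a from -0.2747 to 0.1222. The cause was not tested for any of these.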
